A study of Mus musculus with 12 samples.

Results

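The 32 genes described here encode chromatin remodelers and transcriptional coactivators with long transcripts. They were taken from a list of names drawn up with earlier results of these data known, and all 32 were found among the 24421 genes of the count tables. All of them also passed the filter on low counts, which left 12252 genes for testing. By role they are the 8 CHD remodelers Chd1, Chd2, Chd3, Chd4, Chd6, Chd7, Chd8 and Chd9, the 5 BAF and PBAF subunits Arid1a, Arid1b, Arid2, Smarca2 and Smarca4, and the 3 INO80 family ATPases Ep400, Srcap and Ino80. Bptf, Baz1a, Baz1b, Baz2a and Baz2b encode 5 partners of the ISWI motor. Ep300, Crebbp and Ncor1 are cofactors that act on histone acetylation, and Setd2, Nsd1, Ash1l, Kdm2a and Kdm6b are enzymes that write or remove histone methyl marks. Tet2 and Tet3 oxidise methylcytosine, and Nipbl loads cohesin.

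Chromatin remodelers use ATP to slide, evict or exchange nucleosomes, and thereby set which promoters and enhancers a cell can read. Coactivators such as p300 and CBP, encoded by Ep300 and Crebbp, acetylate histones at active enhancers, whereas NCoR1 brings a histone deacetylase to repressed genes. In the heart, BAF subunits and CHD7 are known for their part in development, and mutations of CHD7 and NIPBL in people cause syndromes with heart defects.

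The data were RNA-seq libraries of YFP-positive cardiomyocytes, sorted at postnatal day 1 from hearts of CD1 mice, and n counts libraries throughout. The Glut1 transgenic hearts, which carried aMHC-hGLUT1tg and aMHC-Cre tg together with R26+/YFP as a reporter, gave 4 Tnnt2low and 4 Tnnt2high libraries, and the WT hearts gave 2 and 2. According to the study's methods the WT hearts carried the aMHC-Cre and R26+/YFP alleles too, so that both genotypes shared the driver and the reporter, and the αMHC promoter drove both the transgene and Cre in cardiomyocytes. The sort was on Mitotracker, and Mitotracker-high cells are called Tnnt2low and Mitotracker-low cells Tnnt2high, as in the study. In the Glut1 transgenic group, each replicate number stands for a single heart with both of its populations. Both WT replicates carry the same heart number, so they may come from 1 heart. The p-values rest on a spread estimated within all 4 groups in 1 fit, to which the Glut1 transgenic hearts give more libraries. If the WT libraries come from 1 heart, this holds no spread between WT hearts. In bulk libraries, fewer cells with a transcript and less of it per cell cannot be told apart.

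Reads assigned to genes numbered 4065306 to 9815069 per library, and each library held 10966 to 55046 reads of the 32 genes. Slc2a1, the mouse gene of the transporter, was read at 44.9 to 92.3 CPM in Glut1 transgenic Tnnt2low cells against 15.9 and 27.7 CPM in WT. Reads of the human transgene can only reach it by similarity. Between genotypes Slc2a1 differed by 1.75 ± 0.42 in Tnnt2low and 1.6 ± 0.42 in Tnnt2high cells (log2, SE). It was not called at an adjusted p below 0.05 in either (edgeR). CPM here are reads of a gene scaled to the reads assigned to all genes, with TMM factors. Tnnt2 itself fell by 0.42 ± 0.09 (log2, SE; adjusted p = 0.00723, edgeR) in Tnnt2low against Tnnt2high cells of Glut1 transgenic hearts. In WT hearts Tnnt2 differed by only -0.04 ± 0.13 (log2, SE) and was not called, so its mRNA did not separate the WT populations. Cardiomyocyte markers were abundant in all 12 libraries, with a summed level of 141072 to 179913 CPM for 12 genes.

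The genes were grouped for their long transcripts, so their length is a description and not a result. The summed length of their exons ran from 6475 bases in Smarca4 to 23148 in Chd9, with a median of 13726 against 4584 for the genes tested, 70.5% of which were shorter than the shortest of the 32. Their longest annotated transcripts ran from 5921 to 12784 bases (median 8808 against 3476), and these had a median of 32 exons against 8. In GC content of the longest transcript they did not stand apart, with a median of 49.6% against 49.7%.

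Promoter windows of 300 bases were listed in RefSeq (GRCm38.p6) for 21 of the 32 genes, 25 windows in all, each from 250 bases before to 50 bases after a start. Chd1, Chd2, Chd3, Chd7, Arid2, Baz1a, Nsd1, Ash1l, Kdm2a, Kdm6b and Nipbl had no listed window. The windows below belong to the 3 listed genes with the smallest p between the populations of Glut1 transgenic hearts and to the 1 with the largest, so that genes that did and did not differ can be read side by side. Arid1a and Ncor1 have 2 listed windows each, and the one farther upstream is shown. Capitals mark matches on either strand to the letters GGGCGG, the GC box bound by Sp1-type factors, and CCGGAAG, a core bound by ETS factors.
Arid1a, chr4:133756720-133757019, minus strand: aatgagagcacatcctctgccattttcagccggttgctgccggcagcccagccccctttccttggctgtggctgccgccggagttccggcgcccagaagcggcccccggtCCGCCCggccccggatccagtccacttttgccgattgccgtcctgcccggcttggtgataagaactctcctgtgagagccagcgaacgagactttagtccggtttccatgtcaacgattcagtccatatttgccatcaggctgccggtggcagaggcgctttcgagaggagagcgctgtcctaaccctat
Setd2, chr9:110532347-110532646, plus strand: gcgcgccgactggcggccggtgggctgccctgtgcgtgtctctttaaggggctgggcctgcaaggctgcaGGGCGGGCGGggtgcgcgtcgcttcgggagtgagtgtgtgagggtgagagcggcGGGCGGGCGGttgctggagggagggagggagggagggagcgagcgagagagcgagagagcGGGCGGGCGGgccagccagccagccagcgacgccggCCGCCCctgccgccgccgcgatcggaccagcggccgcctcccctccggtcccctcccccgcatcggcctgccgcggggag
Ncor1, chr11:62457283-62457582, minus strand: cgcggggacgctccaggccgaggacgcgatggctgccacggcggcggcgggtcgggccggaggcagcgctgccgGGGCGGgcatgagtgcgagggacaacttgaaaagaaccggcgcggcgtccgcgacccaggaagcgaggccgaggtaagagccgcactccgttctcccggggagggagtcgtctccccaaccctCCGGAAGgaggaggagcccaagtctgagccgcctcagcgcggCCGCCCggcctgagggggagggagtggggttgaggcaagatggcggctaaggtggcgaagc
Smarca2, chr19:26604910-26605209, plus strand: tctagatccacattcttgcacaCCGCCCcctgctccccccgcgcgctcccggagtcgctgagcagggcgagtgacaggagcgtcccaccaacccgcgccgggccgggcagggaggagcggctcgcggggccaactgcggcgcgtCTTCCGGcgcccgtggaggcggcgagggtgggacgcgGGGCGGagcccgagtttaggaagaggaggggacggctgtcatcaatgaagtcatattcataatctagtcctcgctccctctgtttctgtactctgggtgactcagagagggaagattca
The Setd2 window holds 7 matches to the GC box, 6 of which overlap in 3 runs, the Arid1a window shown 1, and the Ncor1 window shown and the Smarca2 window 2 each. The other listed window of Arid1a has 7 matches and 36 CpG, and that of Ncor1 has 0 matches and 2 CpG, so these numbers depend on the window. CpG dinucleotides numbered 22 in the Arid1a window shown, 38 in Setd2, 36 in Ncor1 and 29 in Smarca2. Over all 25 windows the median was 29 CpG, against 21 in 11838 windows of genes tested and 7 in all 32851 windows. A GC box was found in 22 of the 25 windows (88%), against 63.4% of windows of genes tested and 35.7% of all windows. The other letters were found in a smaller share of windows than among genes tested, at 12% against 17.4% for CCGGAAG, 32% against 37.5% for CCAAT and 4.0% against 7.09% for TATAAA. A match describes the letters in the window and does not show that a factor binds there.

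The first comparison asked how Tnnt2low cells of Glut1 transgenic hearts differ from Tnnt2high cells of the same hearts. Transcripts of 23 of the 32 genes were higher in Tnnt2low cells at an adjusted p below 0.05, and none was lower. Over all genes tested, 8.42% were called higher and 8.33% lower. The fold change of all 32 was above 0, with a median of 0.61 on the log2 scale and a range from 0.06 for Smarca2 to 0.93 for Arid1a, while 49.6% of all genes tested were above 0. DESeq2 called 24, against 11.1% of the genes it tested, and libraries of the 2 populations did not overlap for 24 genes, against 11.2% of genes tested that were higher without overlap. Added up, the 32 genes made 5036 ± 249 CPM in Tnnt2low libraries against 3310 ± 361 CPM in Tnnt2high libraries (SD, n = 4 each). The plot of levels by library shows this as a block of low values in the Tnnt2high libraries.

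**Figure D1:**
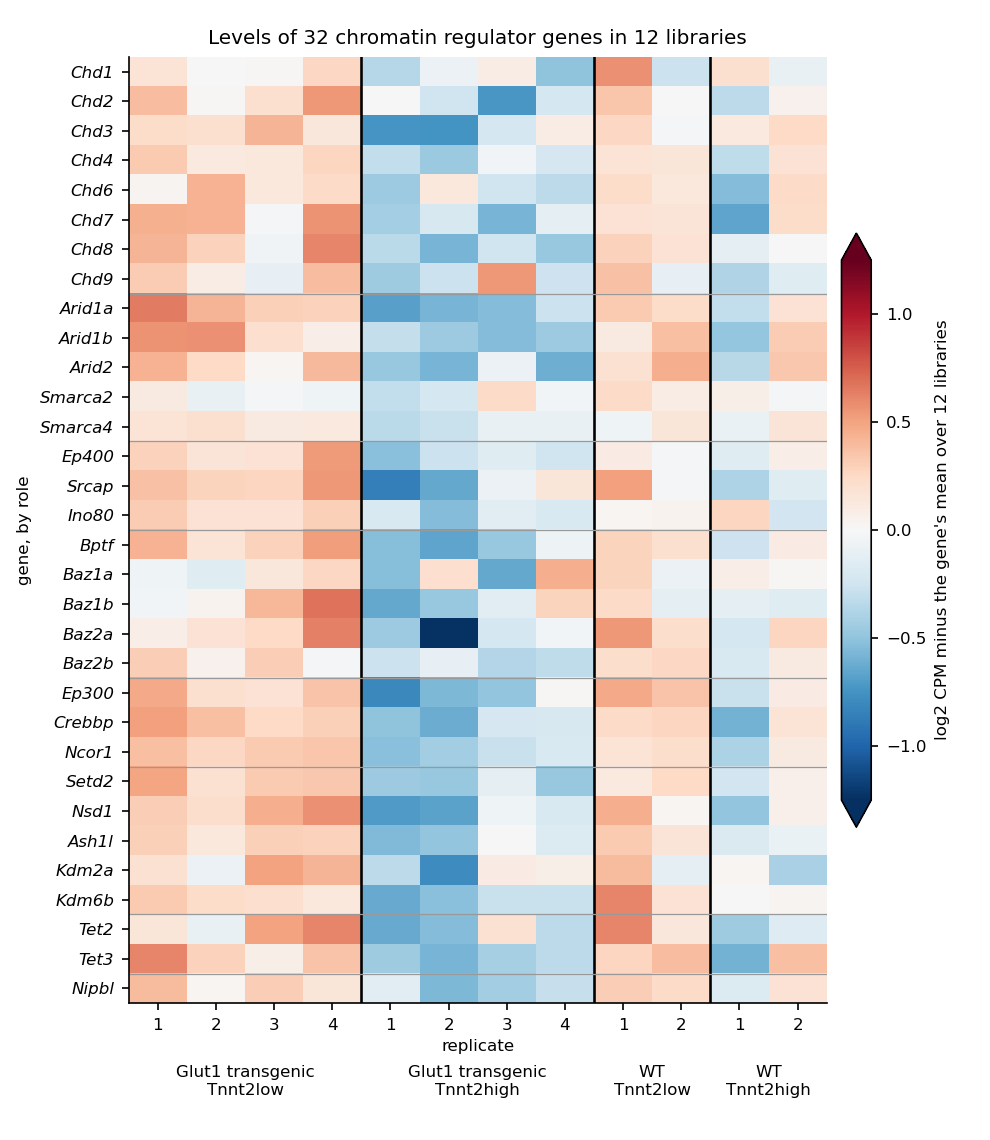
Level of each gene (rows, grouped by role) in each of 12 libraries (columns), as log2 CPM minus the mean of the gene over the 12 libraries, with red above and blue below that mean. The 4 Glut1 transgenic Tnnt2high libraries are mostly blue and the Tnnt2low libraries mostly red, while replicate 2 of WT Tnnt2high is closer to the WT Tnnt2low libraries than replicate 1 is.

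Length and read composition moved with the same comparison. Across 12187 genes with a known exon length, the log2 fold change was larger for longer genes (Spearman correlation 0.45, a description across genes of the same libraries), from a median of -0.86 for 342 genes of up to 1000 bases to 0.47 for 747 genes over 12000 bases. Among the 3546 genes tested in the length range of the 32, 20% were called higher and 73.2% were above 0, with a median of 0.30. Reads outside exons numbered 0.962 ± 0.0758 per gene read (SD, n = 4) in Tnnt2low and 2.38 ± 0.169 (SD, n = 4) in Tnnt2high libraries of Glut1 transgenic hearts, and their part in the result was not tested. An offset that removes the trend with exon length in each library left 2 of the 23 calls, Arid1a and Kdm6b, and a median of 0.34. Values with this offset are given beside each role.

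BAF and PBAF complexes evict and move nucleosomes at enhancers, and 4 of their 5 subunits among these genes were higher in Tnnt2low cells. Arid1a, the DNA-binding subunit that defines one form of BAF (chr4:133679008-133756769, minus strand), was read at 428, 366, 335 and 333 CPM in the 4 Glut1 transgenic Tnnt2low replicates and at 170, 182, 187 and 227 CPM in Tnnt2high, against 342 and 319 in WT Tnnt2low and 220 and 309 in WT Tnnt2high. Every Glut1 transgenic Tnnt2low library lay above every Tnnt2high library, and the 4 hearts differed by 0.55 to 1.33 on the log2 scale, all in the same direction. Its log2 fold change of 0.93 ± 0.14 (SE; adjusted p = 0.00198) was the largest of the 32 and remained past the threshold with the length offset, at 0.65 (adjusted p = 0.0122). Arid1b, its paralog in the alternative complex, gave 150, 151, 118 and 108 CPM in Glut1 transgenic Tnnt2low and 82.7, 74.2, 69.9 and 74.5 CPM in Tnnt2high replicates, against 110 and 132 in WT Tnnt2low and 72.9 and 127 in WT Tnnt2high. Its groups were also separate in the Glut1 transgenic hearts, with a log2 fold change of 0.80 ± 0.17 (SE; adjusted p = 0.00727), which missed the threshold with the offset (0.49, adjusted p = 0.105).

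Arid2, the subunit that marks PBAF, rose by 0.70 ± 0.17 (log2, SE; adjusted p = 0.0144), and stood at 0.43 with the length offset (adjusted p = 0.159). Of the 2 alternative ATPases, Smarca4, which encodes BRG1, rose by 0.35 ± 0.11 (log2, SE; adjusted p = 0.043), and stood at 0.22 with the offset (adjusted p = 0.269). Smarca2, which encodes BRM, was read at 80.7, 70.0, 73.1 and 71.9 CPM in Glut1 transgenic Tnnt2low and at 60.1, 64.1, 87.8 and 72.6 CPM in Tnnt2high replicates, and at 87.7 and 79.4 against 78.2 and 73.6 CPM in WT. The Glut1 transgenic groups overlapped throughout, and the log2 fold change of 0.06 ± 0.14 (SE; adjusted p = 0.825) turned to -0.29 with the length offset. The 2 length measures place Smarca2 differently, since its exons sum to 14269 bases but its longest transcript has 5921, the shortest of the 32. Per kb of longest transcript, Smarca4 stood at 41.5 CPM and Smarca2 at 12.5 CPM in Glut1 transgenic Tnnt2low cells. The log2 ratio of Smarca4 to Smarca2 reads was 1.84 ± 0.10 (SD, n = 4) there and 1.56 ± 0.14 (SD, n = 4) in Tnnt2high cells. That of Arid1a to Arid1b was 1.48 ± 0.15 and 1.34 ± 0.24 (SD, n = 4 each), 2 values closer than their spread. In WT Tnnt2low and Tnnt2high cells Smarca4 to Smarca2 stood the other way, at 1.56 ± 0.24 and 1.69 ± 0.24 (SD, n = 2 each). Arid1a to Arid1b stood at 1.46 ± 0.26 and 1.44 ± 0.22 in these WT groups.

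CHD remodelers join chromodomains, which bind modified histones in several members, to an ATPase, and 5 of 8 were higher in Tnnt2low cells of Glut1 transgenic hearts, with a median log2 fold change of 0.52. Chd4, the ATPase of the NuRD complex, had the highest level per kb of the 32, with 91.8 CPM per kb of longest transcript in Tnnt2low and 66.7 in Tnnt2high cells, and rose by 0.46 ± 0.13 (log2, SE; adjusted p = 0.023). Chd8, a repressor of Wnt target genes, was read at 123, 112, 89.1 and 140 CPM in Tnnt2low and at 72.8, 61.3, 77.4 and 66.2 CPM in Tnnt2high replicates of Glut1 transgenic hearts, against 112 and 104 in WT Tnnt2low and 84.5 and 91.8 in WT Tnnt2high. In both genotypes all Tnnt2low libraries were above all Tnnt2high ones, by 0.74 ± 0.15 (log2, SE; adjusted p = 0.00477) in the Glut1 transgenic hearts. Chd2, Chd3 and Chd7 rose by 0.58, 0.61 and 0.69 on the log2 scale (SE 0.17, 0.18 and 0.19; adjusted p = 0.0326, 0.0287 and 0.0236). Chd3, another NuRD ATPase, gave 126, 124, 145 and 119 CPM in Tnnt2low and 64.6, 64.1, 92.7 and 115 CPM in Tnnt2high replicates, while WT libraries stood at 129 and 106 against 117 and 128 CPM. The populations were apart in Glut1 transgenic and mixed in WT hearts. In Chd2, 2628 exon bases overlap 1810026B05Rik on the same strand, so its counts are uncertain.

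Chd1, Chd6 and Chd9 did not pass the threshold, with log2 fold changes of 0.31, 0.42 and 0.24 (adjusted p = 0.302, 0.105 and 0.503). Chd9 was low in both populations, at 41.5, 35.4, 31.0 and 43.4 CPM in Tnnt2low and 24.4, 27.7, 48.6 and 27.8 CPM in Tnnt2high replicates of Glut1 transgenic hearts, with 43.0 and 31.0 against 25.7 and 30.0 CPM in WT. Replicate 3 of Tnnt2high, the highest of its 8 Glut1 transgenic libraries, made the groups overlap. With the length offset no CHD gene was called, and their median was 0.24 in place of 0.52.

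INO80 family ATPases exchange histone variants such as H2A.Z, and 2 of the 3 were higher. Ep400, the motor of the TIP60 complex, stood at 128, 117, 119 and 152 CPM in Tnnt2low and 73.1, 87.1, 94.2 and 88.5 CPM in Tnnt2high replicates of Glut1 transgenic hearts, and at 113 and 104 against 94.7 and 111 CPM in WT. The Glut1 transgenic libraries did not overlap and the WT libraries did, with a log2 fold change of 0.59 ± 0.13 (SE; adjusted p = 0.00826) in the former. In Ep400, 4.89% of 50-base words also occur in Gm12928, so that reads could be lost or shared. Srcap, which deposits H2A.Z, rose by 0.66 ± 0.20 (log2, SE; adjusted p = 0.035), and 9738 of its exon bases overlap Gm42715 on the same strand, so its counts are uncertain. Ino80 was read at 33.2, 30.3, 30.2 and 32.7 CPM in Tnnt2low and 23.4, 18.3, 24.1 and 23.3 CPM in Tnnt2high replicates, and at 27.1 and 27.5 against 32 and 22.5 CPM in WT. Although these Glut1 transgenic libraries were separate, its log2 fold change of 0.50 ± 0.17 (SE) just missed the threshold (adjusted p = 0.0528). With the length offset none of the 3 was called, at 0.25 for Ep400, 0.30 for Srcap and 0.36 for Ino80 (adjusted p = 0.253, 0.337 and 0.219), and their median was 0.30 in place of 0.59.

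BPTF and the BAZ proteins guide the ISWI motor, and 3 of the 5 genes were higher. Bptf, the largest subunit of NURF, gave 174, 145, 157 and 185 CPM in Tnnt2low and 88.8, 81.6, 93.0 and 123 CPM in Tnnt2high replicates of Glut1 transgenic hearts, against 156 and 148 in WT Tnnt2low and 108 and 138 in WT Tnnt2high. Both genotypes kept the populations apart, with a log2 fold change of 0.77 ± 0.15 (SE; adjusted p = 0.0043) in the Glut1 transgenic hearts and 0.43 (adjusted p = 0.0595) there with the length offset. Baz2a and Baz2b rose by 0.72 ± 0.22 and 0.43 ± 0.13 (log2, SE; adjusted p = 0.0379 and 0.0378), and the offset took Baz2b to 0.02. Baz1a and Baz1b were not called, at 0.11 and 0.51 on the log2 scale (adjusted p = 0.799 and 0.101), and Baz1a had the smallest share of hearts in one direction, 2 of 4, together with Smarca2. Of 50-base words, 5.28% in Baz1a and 3.28% in Baz2a also occur in other genes, so that reads could be lost or shared.

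The cofactors Ep300, Crebbp and Ncor1 were all 3 higher in Tnnt2low cells. Ep300 was read at 112, 92.6, 91.2 and 103 CPM in Tnnt2low and at 46.2, 54.5, 57.5 and 81.6 CPM in Tnnt2high replicates of Glut1 transgenic hearts, and at 112 and 103 against 66.4 and 86.6 CPM in WT. Crebbp, its paralog, stood at 261, 236, 217 and 224 CPM and at 129, 119, 158 and 159 CPM in the same 2 groups, and at 216 and 220 against 121 and 205 CPM in WT. Ncor1 gave 312, 288, 302 and 306 CPM in Tnnt2low and 167, 177, 198 and 210 CPM in Tnnt2high replicates, with 270 and 280 against 182 and 259 CPM in WT. In all 3 genes and both genotypes, each Tnnt2low library exceeded each Tnnt2high library. The log2 fold changes in Glut1 transgenic hearts were 0.73 ± 0.17, 0.73 ± 0.16 and 0.68 ± 0.12 (SE), with adjusted p-values of 0.00982, 0.00724 and 0.00341. With the length offset none of the 3 was called, at 0.39, 0.40 and 0.37.

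Of the histone methylation enzymes, 4 of 5 were higher. Setd2, which trimethylates lysine 36 of histone H3 along transcribed genes (chr9:110532597-110618633, plus strand), was read at 167, 136, 149 and 150 CPM in Tnnt2low and at 87.0, 85.4, 109 and 85.4 CPM in Tnnt2high replicates of Glut1 transgenic hearts, against 129 and 141 in WT Tnnt2low and 101 and 124 in WT Tnnt2high. Nsd1, which adds methyl groups to the same residue, gave 279, 263, 309 and 335 CPM against 138, 142, 217 and 198 CPM, and 309 and 229 against 160 and 235 CPM in WT. The populations were apart for both genes in the Glut1 transgenic hearts, with log2 fold changes of 0.72 ± 0.13 and 0.77 ± 0.18 (SE; adjusted p = 0.00337 and 0.00923). Setd2 had an adjusted p of 0.0577 with the length offset and 0.0477 once GC content was added to it. Kdm6b, the H3 lysine 27 demethylase also known as JMJD3 (chr11:69398508-69413675, minus strand), stood at 230, 215, 213 and 201 CPM in Tnnt2low and 119, 128, 151 and 151 CPM in Tnnt2high replicates, and at 280 and 208 against 184 and 188 CPM in WT. Again no libraries overlapped, and its log2 fold change of 0.65 ± 0.13 (SE; adjusted p = 0.00461) stayed called at 0.50 (adjusted p = 0.0268) with the offset. Kdm6b is also among the shortest of the 32 by summed exons, at 6954 bases. With the offset Nsd1 stood at 0.38 (adjusted p = 0.151). Ash1l, another H3 methyltransferase, rose by 0.54 ± 0.13 (log2, SE; adjusted p = 0.0137) and stood at 0.18 with the offset (adjusted p = 0.407), and Kdm2a, an H3 lysine 36 demethylase, was not called at 0.47 ± 0.21 (adjusted p = 0.133).

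Tet3 was read at 150, 120, 103 and 126 CPM in Tnnt2low and at 72.0, 65.7, 73.6 and 78.1 CPM in Tnnt2high replicates of Glut1 transgenic hearts, with 118 and 128 against 65.2 and 127 CPM in WT. Its groups were apart by 0.79 ± 0.18 (log2, SE; adjusted p = 0.00999) in the Glut1 transgenic hearts. Tet2 gave 72.8, 61.1, 92.8 and 99.9 CPM in Tnnt2low and 42.2, 44.9, 74.4 and 52.0 CPM in Tnnt2high replicates, and 100 and 71.9 against 47.9 and 58.3 CPM in WT. Replicate 3 of Tnnt2high exceeded 2 of the Tnnt2low libraries, and 0.61 ± 0.21 (log2, SE) just missed the threshold (adjusted p = 0.0539). Nipbl rose by 0.57 ± 0.14 (log2, SE; adjusted p = 0.0109), from 86.5 to 116 CPM in Tnnt2high to 130 to 168 CPM in Tnnt2low libraries. With the length offset none of these 3 genes was called, at 0.39 for Tet3, 0.22 for Tet2 and 0.34 for Nipbl (adjusted p = 0.163, 0.539 and 0.134).

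Within single hearts, Tnnt2low exceeded Tnnt2high cells for 32, 31, 29 and 30 of the 32 genes in the 4 Glut1 transgenic hearts, with median log2 differences of 0.80, 0.68, 0.46 and 0.54. In all 4 hearts 28 of the genes were higher, and Chd1, Chd9, Smarca2 and Baz1a were not. In the fit without a block, 49.6% of all genes tested and 73.2% of genes in the length range of the 32 were above 0. With the heart as a block in the fit, 24 were called, against 9.83% of genes tested, and Baz1b, Kdm2a and Tet2 were among them (adjusted p = 0.0134, 0.0239 and 0.022). Smarca4 and Baz2b dropped out (adjusted p = 0.0503 and 0.0523). With 1 library left out at a time, 15 genes were called in every such fit. The number called was lowest, also 15, without replicate 1 of Glut1 transgenic Tnnt2low. Shares over all genes in single hearts and in these fits are not given here.

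**Figure D2:**
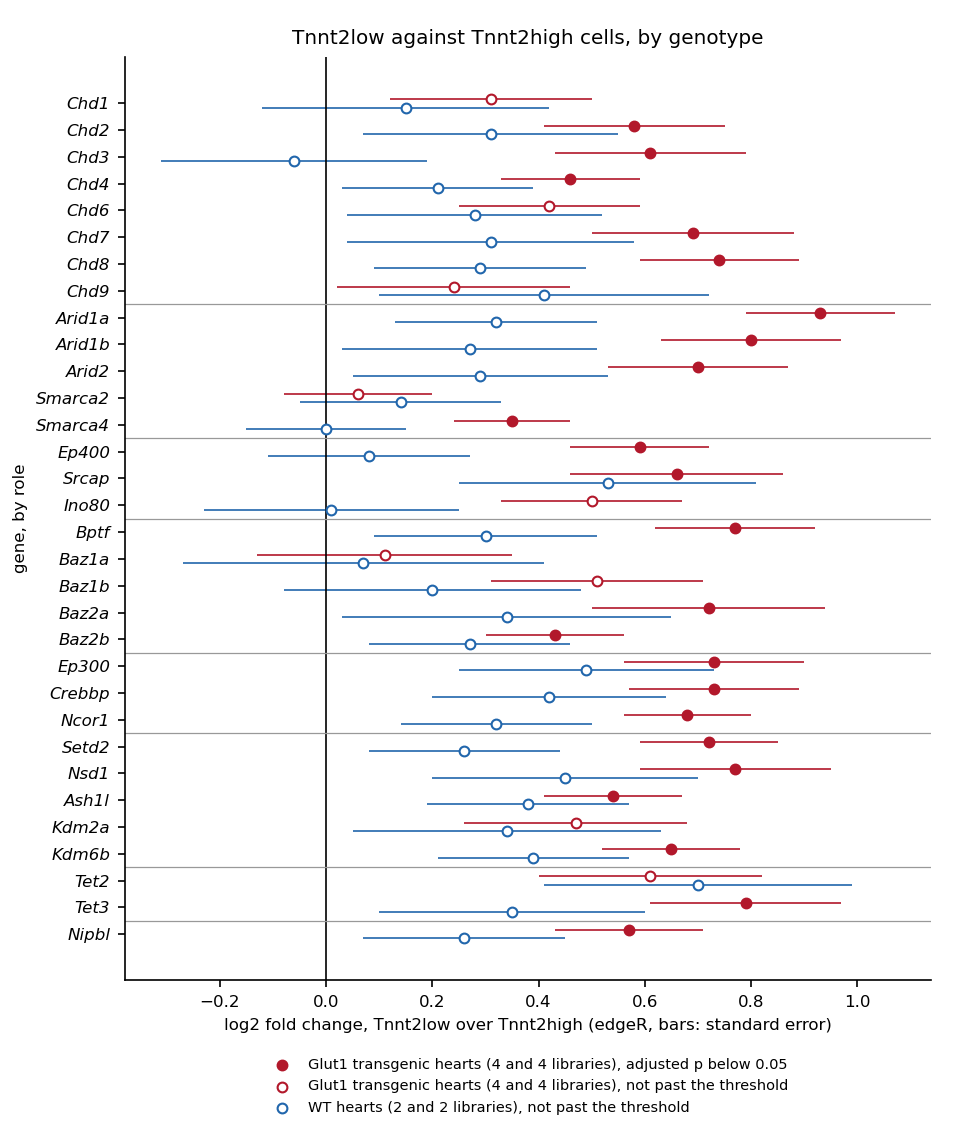
Log2 fold change of each gene, Tnnt2low over Tnnt2high, in Glut1 transgenic (red) and WT hearts (blue), with bars for the standard error and filled points for an adjusted p below 0.05. Filled points are found for 23 genes in Glut1 transgenic hearts and for none in WT hearts, where the values lie between -0.06 and 0.70.

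Against the 3546 genes in their range of summed exons, 29 of the 32 were above the median of 0.30, and 19 were above the upper quartile of 0.57. By class of exon length, the medians of the 32 were 0.42 for 4 genes of 6000 to 8000 bases, 0.66 for 8 genes of 8000 to 12000 bases and 0.64 for 20 longer genes, where all genes tested had 0.19, 0.29 and 0.47. Of the 20 genes over 12000 bases, 16 were above the median of that class and 10 above its upper quartile of 0.65. Measured by the longest transcript, 25 of the 32 were above the median of 0.44 of 1849 genes in their range. Above the upper quartile of 0.66 of that range were 14 of the 32, and 29.5% of the 1849 genes were called higher. Among the 32 the fold change hardly followed the summed exons (Spearman correlation 0.10 over 32 genes of the same libraries) but did follow the longest transcript (0.48).

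**Figure D3:**
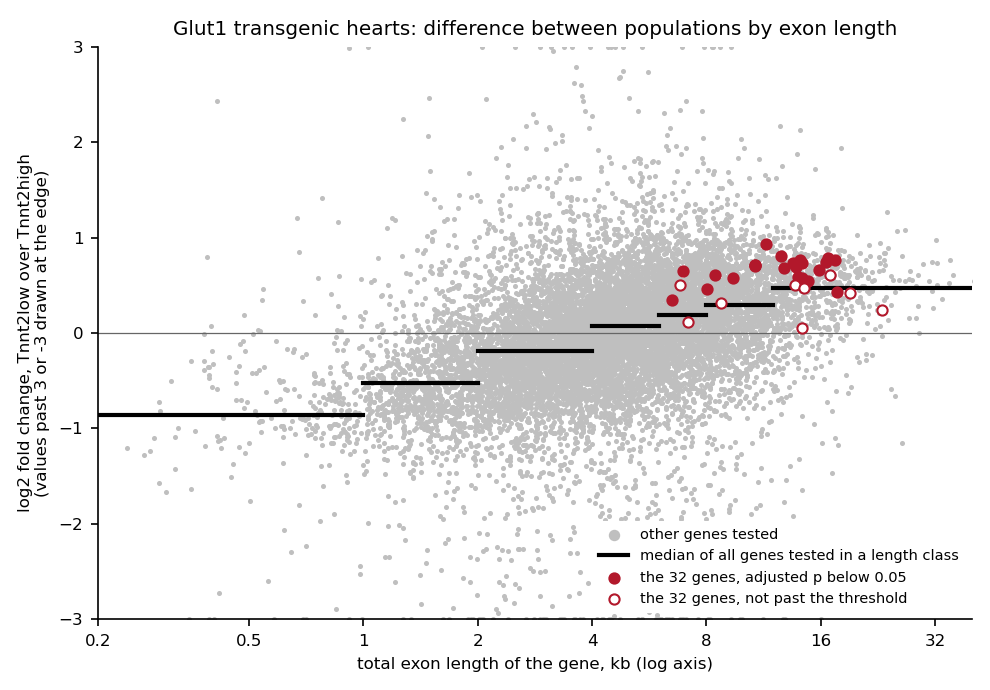
Log2 fold change, Tnnt2low over Tnnt2high in Glut1 transgenic hearts, against the summed exon length of each gene on a log axis, for genes tested (grey) and the 32 genes (red, filled where called), with black lines for the median of all genes tested in each length class. The medians rise from -0.86 to 0.47 with length, and 29 of the 32 genes lie above 0.30, the median of all genes tested in their range.

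With the length offset, 2.35% of all genes tested were called higher, and the 32 had a median of 0.34, with 29 above 0, where genes in their range of summed exons had 0.06. Genes in their range of longest transcript had 0.18 after the same offset, which left a Spearman correlation of 0.17 with longest transcript length across 12187 genes. The values after the offset were 0.65 for Arid1a, 0.50 for Kdm6b and 0.49 for Arid1b at the top and -0.29 for Smarca2, -0.22 for Chd9 and -0.04 for Baz1a at the bottom. An offset for length and GC content left 3 calls (2.24% of genes tested) by adding Setd2. In a fit with the heart as a block and both corrections, 6 genes were called (3.77% of genes tested), namely Arid1a, Arid1b, Bptf, Setd2, Kdm6b and Ncor1. An offset for the longest transcript, chosen after these values were seen, left Arid1a alone (0.890% of genes tested) and a median of 0.24. How many of the 32 were called thus rested on whether and how length was taken into account, and Arid1a was called in each of these fits.

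**Figure D4:**
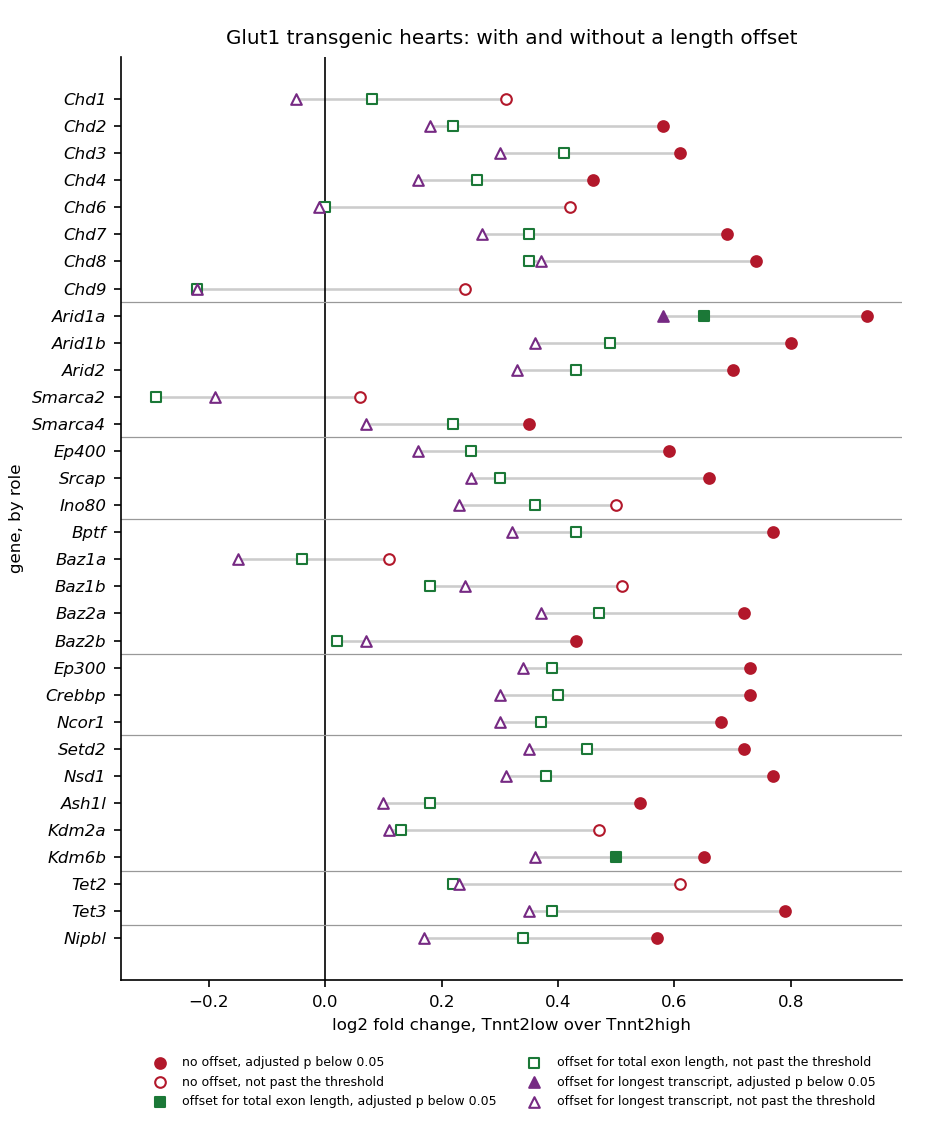
Log2 fold change of each gene, Tnnt2low over Tnnt2high in Glut1 transgenic hearts, with no offset (red circles), with an offset for summed exon length (green squares) and with an offset for the longest transcript (purple triangles), filled where the adjusted p is below 0.05. The median moves from 0.61 to 0.34 and 0.24, and Arid1a is filled under all 3 settings.

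Other genes of the same complexes and enzyme classes were read in the same comparison, in which 8.42% of all genes tested were called higher and 8.33% lower. Among 18 further BAF and PBAF subunits 3 rose and 1 fell, with a median log2 fold change of -0.04. Smarcc1 and Smarcc2, core scaffold subunits, rose by 0.63 ± 0.13 and 0.59 ± 0.12 (log2, SE; adjusted p = 0.00668 and 0.00539), whereas Smarcb1, another core subunit, was at -0.56 ± 0.18 (adjusted p = 0.0463). Of 12 NuRD subunits 1 rose and 1 fell (median -0.03), of 26 subunits of INO80, SRCAP and TIP60 2 rose and 3 fell (median -0.13), and of 6 ISWI ATPases and partners none rose and 1 fell (median -0.12). NCoR and SIN3 subunits gave 3 higher and 1 lower of 10 (median -0.04), and cohesin genes 2 higher and none lower of 10 (median 0.22).

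Further histone enzymes and cofactors were read as well. Of 22 other histone methyltransferases 12 rose and none fell, with a median of 0.63 and with Dot1l, the H3 lysine 79 methyltransferase, at 0.86 ± 0.13 (log2, SE; adjusted p = 0.00191). Of 16 other acetyltransferases and coactivators 9 rose and none fell (median 0.61), among them Ncoa6, a nuclear receptor coactivator, at 0.89 ± 0.17 (adjusted p = 0.00421). Of 6 genes of DNA methylation 4 rose (median 0.65), and of 14 other histone demethylases 3 rose (median 0.32), with none lower in either. The median exon length was 9150 bases for the methyltransferases, 8236 for the coactivators, 11222 for the DNA methylation genes and 8304 for the demethylases. It was 7448 for cohesin genes, 6948 for ISWI ATPases and partners and 6026 for the BAF and PBAF subunits. The NCoR and SIN3 subunits had 5562, the INO80, SRCAP and TIP60 subunits 3912 and NuRD 3769. With the length offset the medians of these lists, in the same order, began with 0.33, 0.39, 0.31 and 0.15, beside 0.34 for the 32 genes. From cohesin genes to NuRD they were 0.07, -0.33, -0.08, 0.06, -0.10 and 0.06.

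**Figure D5:**
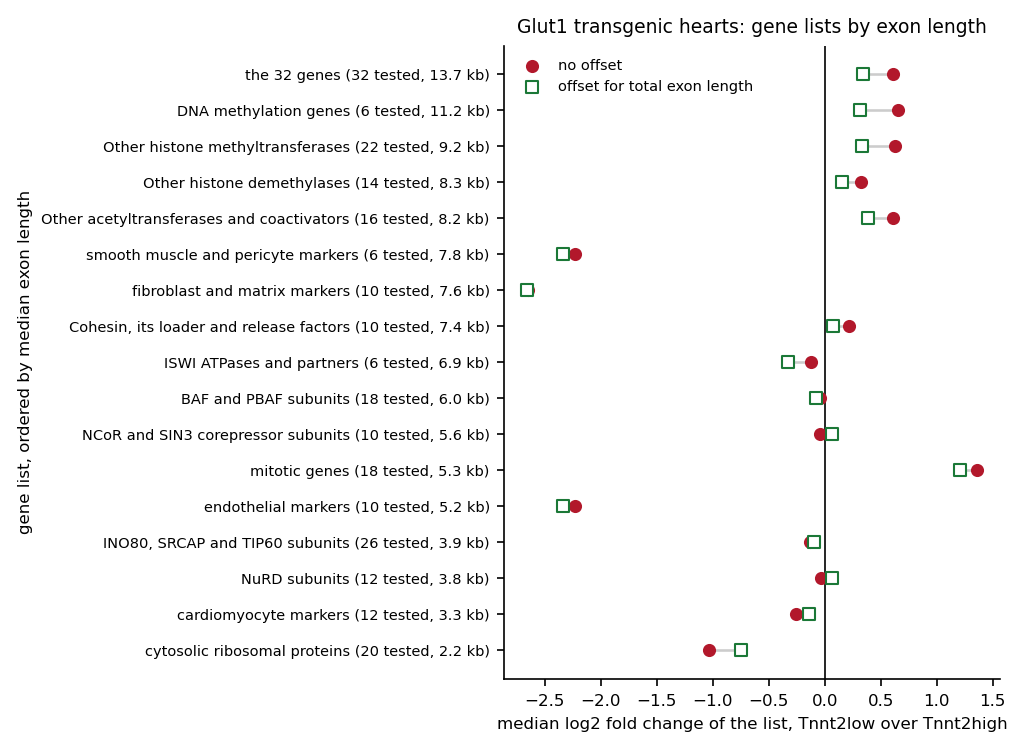
Median log2 fold change, Tnnt2low over Tnnt2high in Glut1 transgenic hearts, of the 32 genes and of each gene list, without and with an offset for exon length, ordered by the median exon length of the list. The 32 genes move from 0.61 to 0.34 and the cytosolic ribosomal proteins from -1.03 to -0.75.

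Other groups of genes moved with the populations too, where 8.42% of all genes tested were called higher and 8.33% lower. Mitotic genes rose in 13 of 18 cases (median 1.36, and 1.21 with the length offset), and their summed level was 1623 ± 741 CPM in Tnnt2low and 584 ± 93.8 CPM in Tnnt2high libraries of Glut1 transgenic hearts (SD, n = 4 each). Cytosolic ribosomal protein genes, which are short, fell in 15 of 20 cases (median -1.03). Fibroblast and matrix markers fell in 7 of 10 cases, from a sum of 551 ± 364 CPM in Tnnt2high to 96.4 ± 38.4 CPM in Tnnt2low libraries, and endothelial markers summed to 188 ± 128 and 41.9 ± 38.7 CPM (SD, n = 4 each). No endothelial marker was called by edgeR, 7 of 10 were lower at an unadjusted p below 0.05, and DESeq2 called 1. Smooth muscle and pericyte markers rose in 2 and fell in 2 of 6 cases. Of 2 leukocyte markers and 1 erythroid marker tested none was called by edgeR or DESeq2 or passed an unadjusted p of 0.05, and the same held for 4 nuclear-retained noncoding RNAs. Of 12 cardiomyocyte markers 1 rose and 4 fell. The part of these groups in the levels of the 32 genes was not tested.

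The same comparison in WT hearts had 2 libraries per population. None of the 32 genes was called by edgeR, nor was any of the genes tested (0%), DESeq2 called none of the 32 (0.00592% of genes it tested), and 2 genes, Tet2 and Kdm6b, were higher at an unadjusted p below 0.05 (1.20% of genes tested). The fold change was above 0 for 31 of the 32, where 49.8% of all genes tested were, and the median was 0.30, from -0.06 for Chd3 to 0.70 for Tet2. Libraries were higher without overlap for 15 genes, against 15.3% of genes tested. Tet2 differed by 0.70 ± 0.29 (log2, SE; unadjusted p = 0.0299, edgeR), Kdm6b by 0.39 ± 0.18 (unadjusted p = 0.0443) and Ep300 by 0.49 (unadjusted p = 0.0564), all with an adjusted p of 1.0. The WT libraries, all of heart number 9, can be paired by replicate number only. Paired so, they were unlike, with 31 genes higher and a median difference of 0.54 in the first and 21 genes higher and a median of 0.06 in the second. Shares over all genes in each pair are not given here. The WT fold change was also larger for longer genes (Spearman correlation 0.30 across 12187 genes and 0.56 across the 32, as a description). Of genes in the length range of the 32, 67.0% were above 0, with a median of 0.13. Added up, the 32 genes made 4808 ± 298 CPM in WT Tnnt2low and 3940 ± 722 CPM in WT Tnnt2high libraries (SD, n = 2 each).

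Whether the population difference itself depended on the genotype was tested as an interaction, which uses the libraries of both comparisons above. No gene of the 32 was called by edgeR or DESeq2, nor was any gene tested by edgeR (0%), and DESeq2 called 0.0118% of genes higher. For 29 of the 32 the fold change was larger in Glut1 transgenic hearts, as for 51.2% of all genes tested, with a median difference of 0.31. Of genes in the length range of the 32, 66.7% were larger, with a median of 0.17, and with the length offset the median of the 32 was 0.18. Without replicate 1 of WT Tnnt2high the median of the 32 was 0.48, and without replicate 2 it was 0.07. At an unadjusted p below 0.05 there were 3 genes, against 2.32% of genes tested in that direction. These were Arid1a with 0.61 ± 0.24 (log2, SE; unadjusted p = 0.0204), Ep400 with 0.52 ± 0.23 (unadjusted p = 0.0384) and Chd3 with 0.67 ± 0.30 (unadjusted p = 0.0438), each with an adjusted p of 0.961. Chd9, Smarca2 and Tet2 went the other way, at -0.17, -0.08 and -0.08. A call in Glut1 transgenic but not in WT hearts was thus not shown to be a difference between the genotypes for any of the 32.

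The comparisons between genotypes asked how Glut1 transgenic and WT cells differed within each population, and they share libraries with those above. The hearts of these genotypes were not matched in sex-linked transcripts, as given below. In Tnnt2low cells no gene of the 32 was called by edgeR (0% of genes tested were called higher and 0.00816% lower) or DESeq2 (0.0237% higher). None reached an unadjusted p of 0.05, which 0.930% of genes tested did as higher and 1.16% as lower. The median was 0.10 on the log2 scale, with values from -0.18 to 0.25, and 22 were above 0, against 50.5% of genes tested. Without replicate 2 of WT Tnnt2low the median was -0.01. Ep400, Ino80 and Ncor1 were higher without overlap in the Glut1 transgenic libraries, against 5.39% of genes tested. Ep400 had the smallest p, at 0.25 ± 0.16 (log2, SE; unadjusted p = 0.14). Ino80 and Setd2 stood at 0.21 ± 0.20 and 0.16 ± 0.16, and Kdm6b, Smarca2 and Ep300 at -0.18 ± 0.15, -0.18 ± 0.17 and -0.11 ± 0.20.

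In Tnnt2high cells all but 2 of the 32 genes had a fold change below 0 against WT, as 50.4% of genes tested did, with a median of -0.23, but none was called by edgeR (0% of genes tested) or DESeq2 (0.0237% higher). Lower at an unadjusted p below 0.05 were 5 genes, against 3.13% of genes tested. Kdm6b differed by -0.44 ± 0.15 and Arid1a by -0.47 ± 0.17 (log2, SE; unadjusted p = 0.0114 and 0.0126, edgeR), and Chd3, Nipbl and Arid2 by -0.54, -0.36 and -0.45 (unadjusted p = 0.0221, 0.0431 and 0.0474), all with an adjusted p of 0.899. The 2 exceptions were Chd9 at 0.20 and Tet2 at 0.00. Libraries of Kdm6b, Chd3, Chd8, Smarca4 and Ep400 were lower without overlap in the Glut1 transgenic group, against 6.12% of genes tested. The 2 WT libraries were 220 and 309 CPM for Arid1a and 121 and 205 CPM for Crebbp, a spread as wide as the difference between the genotypes. In this comparison genes with longer summed exons had lower fold changes (Spearman correlation -0.27 across 12187 genes, as a description), while among the 32 the correlation was 0.48. By the longest transcript these correlations were -0.31 and 0.09, so the value among the 32 depended on the length measure. Of genes in the length range of the 32, 34.4% were above 0, with a median of -0.12, and with the length offset the median of the 32 was -0.11. Without replicate 1 of WT Tnnt2high the median of the 32 was -0.43, and without replicate 2 it was -0.10. Reads outside exons numbered 2.38 ± 0.169 per gene read (SD, n = 4) in the Glut1 transgenic and 1.67 ± 0.228 (SD, n = 2) in the WT libraries, without overlap. Mitotic genes were below 0 in 18 of 18 cases (median -0.86) and fibroblast and matrix markers above 0 in 9 of 10 (median 0.62), and none of either was called by edgeR or DESeq2, with 7 mitotic genes and no fibroblast marker at an unadjusted p below 0.05. The part of these in the values of the 32 genes was not tested. The sex-linked transcripts Xist and Ddx3y differed between hearts. Ddx3y was read at 56.4 to 65.2 CPM in replicates 2 and 4 of the Glut1 transgenic group and at 0 in all WT libraries. The genotypes were thus not matched in this respect, which holds for the Tnnt2low comparison and the interaction as well. Its part in the values of the 32 genes was not tested.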

How the data were processed

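Cardiomyocytes were measured by RNA-seq in 12 libraries (2 genotypes, 2 populations). Per the study's methods and the labels, the authors trimmed single-end reads of 50 bases at a Phred score of 20, aligned them with HISAT2 to mm10 and counted reads over the union of exons with HTSeq, while the sources used here give neither versions nor the strand setting. The deposited values are raw counts per gene. Records that name no gene were left out of library sizes and tests, and reads outside exons made 28.8 to 46.5% of records.

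Counts were tested with edgeR 4.0.16 (R 4.3.3) by its quasi-likelihood test, with TMM scaling, edgeR's filter on low counts and 1 fit over all 4 groups. P-values were adjusted over 12252 genes by Benjamini-Hochberg, two-sided, with a threshold of 0.05. Alternatives were DESeq2 1.42.0, DESeq2-type size factors, no filter, only the groups compared, a fold over 1.5, offsets for exon length and GC content (loess, span 0.3), the heart as a block (limma 3.58.1 for comparisons between genotypes) and leaving out each library. Exon length came from GENCODE vM21 (GRCm38), which matched 98.5% of genes. The heart numbers of the labels pair the populations of Glut1 transgenic hearts. Deviations of libraries from the same heart correlated at 0.23, 0.13, 0.12 and 0.11. Between different Glut1 transgenic hearts the correlations ran from -0.15 to 0.12. All WT libraries carry heart number 9, so WT libraries were blocked by replicate number, which the heart number does not bear out. Named in full were the 12 genes of smallest p between populations of Glut1 transgenic hearts, and the extremes of the other comparisons. Of other lists, up to 3 called genes of smallest p in each direction could be named. The 32 genes and the gene lists were chosen with earlier results of these data known. Only the edgeR fit without offset or block was run on simulated data, which held no trend with length and no pairing by heart. Figures used matplotlib 3.10.9.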

Additional observations from a re-analysis of the deposited data

Results flagged for a closer look

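Of 68 groups of 4 libraries, 4 held a library that stood apart from the others by Dixon's test, and chance alone gives about 1 in 20 groups. In replicate 3 of Glut1 transgenic Tnnt2high, Chd9 was read at 48.6 CPM (24.4 to 27.8 in the others) and Setd2 at 109 CPM (85.4 to 87.0). Ino80 was low at 18.3 CPM in replicate 2 of that group (23.3 to 24.1 in the others). Ash1l was low at 161 CPM in replicate 2 of Glut1 transgenic Tnnt2low (179 to 180 in the others).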

How the results depend on the processing

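Between the populations of Glut1 transgenic hearts, the number of calls depended on the handling of length. The number called was 2 with the length offset, 1 with the longest transcript offset (chosen after seeing the data), 3 with length and GC and 6 with these and the replicate block by heart, at medians of 0.34, 0.24, 0.34 and 0.34. The replicate block alone gave 24. Leaving out 1 library gave 15 to 24 calls and medians of 0.56 to 0.66. A fold over 1.5 left 17 calls, and the share of all genes tested under this rule is not given here.

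In WT hearts the median was 0.13, 0.10, 0.12 and 0.14 under the same 4 settings, and 0.12 to 0.50 with 1 library left out (0.12 without WT Tnnt2high replicate 1, 0.50 without replicate 2). The Tnnt2low comparison of genotypes had a median of -0.01 (without WT Tnnt2low replicate 2) to 0.11 with 1 library left out. The Tnnt2high comparison of genotypes had a median of -0.08 with the longest transcript offset and of -0.43 (without WT Tnnt2high replicate 1) to -0.10 with 1 library left out. The interaction had a median of 0.13 with that offset, and 0.48 and 0.07 without WT Tnnt2high replicates 1 and 2.

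Fold changes between populations of Glut1 transgenic hearts turned negative for Chd9 (-0.22), Smarca2 (-0.29) and Baz1a (-0.04) with the length offset, for Chd1 (-0.05), Chd6 (-0.01), Chd9 (-0.22), Smarca2 (-0.19) and Baz1a (-0.15) with the longest transcript offset, for Chd6 (-0.01), Chd9 (-0.21), Smarca2 (-0.30) and Baz1a (-0.03) with length and GC, and for Chd9 (-0.17) and Smarca2 (-0.29) with the block added. Tet2 turned to -0.05 between genotypes in Tnnt2high cells with the replicate block. With 1 library left out, values that changed sign ranged between populations from -0.02 to 0.17 for Smarca2 and -0.04 to 0.33 for Baz1a (Glut1 transgenic) and -0.20 to 0.07 for Chd3 (WT), between genotypes from -0.38 to 0.04 for Kdm6b (Tnnt2low) and -0.07 to 0.33 for Chd9 and -0.20 to 0.16 for Tet2 (Tnnt2high), and in the interaction from -0.38 to 0.10 for Chd9, -0.16 to 0.03 for Smarca2 and -0.30 to 0.17 for Tet2. The cause was not tested. The WT groups had 2 libraries each, and those may come from 1 heart.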
